A study of Mus musculus with 8 samples.

Results

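The deletion of the whole 3' regulatory region (3'RR) of the immunoglobulin heavy chain (IgH) locus was compared with wild type in mouse splenic B cells, in 4 of the series' 8 RNA-seq libraries: 1 resting and 1 stimulated library of each genotype. These libraries were chosen by genotype and state, with earlier results of these data known. The wild-type (wt) and homozygous 3'RR KO animals, as well as the homozygous hs3b-hs4 KO and 3'PAL KO animals of the other 4 libraries, are described as a mixed background 129/C58BL/6. Age and sex are not stated. B cells were taken as the CD43-negative fraction of splenocytes after a Lympholyte gradient. RNA was prepared at once (resting) or after 48 h of culture with lipopolysaccharide (LPS) at 5 µg/mL and another gradient (stimulated). Each library pooled equal numbers of B cells from 4 animals. With 1 pool per genotype and state there is no replicate within a state.

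The IgH locus carries variable (V), diversity (D) and joining (J) segments, joined by recombination, followed by the constant genes from Ighm to Igha. The 3'RR is a group of enhancers beyond Igha, known for its role in transcription of the assembled heavy chain gene and in class switch recombination, which is preceded by transcription of the downstream constant genes. LPS signals through Toll-like receptor 4 and drives mouse B cells to divide, to secrete IgM and to transcribe and switch to Ighg3 and Ighg2b. The deleted enhancers contain no gene of the count table, so no count checks the genotype directly. The first tested gene on that side, Tmem121, lies 69.2 kb from Igha.

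The 4 libraries held 17883683 to 28785192 gene-assigned counts, of 41249 listed genes, and 3 counts corresponded to between 0.104 and 0.154 CPM (counts scaled to a common library total). The summed CPM of 8 B cell markers was 3496 in wild type and 3532 in the 3'RR deletion at rest, and 2544 and 3211 after LPS. The resting libraries also held RNA of other cells. Summed CPM of 13 erythroid genes at rest was 3137 in wild type, 13501 in the 3'RR deletion, 10747 in hs3b-hs4 KO and 21690.4 in 3'PAL KO, and after culture 92.6, 248.5, 128.8 and 321.4. The 17 monocyte and macrophage genes summed to 545.9, 1947, 828.4 and 430.0 CPM at rest, and to 13.8, 24.7, 15.3 and 16.8 CPM after culture. Of the erythroid genes 3 were at 0 in stimulated wild type and 1 in the stimulated 3'RR deletion, and of the macrophage genes 10 and 2. In bulk samples, fewer cells of a type and less RNA per cell cannot be told apart.

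Across both states, edgeR's quasi-likelihood test called 264 of 13761 tested genes (1.92%) different between the 3'RR deletion and wild type at a Benjamini-Hochberg adjusted p under 0.05. Of these, 116 were higher (0.843%) and 148 lower (1.08%), and the median log2 fold change of all tested genes was 0.04. The fit took the genotype difference as the same in both states and measured its error by how far the 4 genotypes departed from a shared response to LPS. Its p-values therefore describe the spread between these 8 pools, not between animals. The genes that fell were mostly of 3 kinds: 6 IgH constant genes, 44 IgH V segments and 48 pseudogenes. Those that rose included 11 light chain genes, 49 genes under 1 CPM after culture, and 6 further erythroid or macrophage markers. The class of the 49 was defined to hold only genes higher in the deletion than in wild type at rest. The remaining 73 genes with ordinary names divided into 45 that rose and 28 that fell, and a further 5 and 22 had clone-like names. With 1 of the 4 libraries left out, between 51 (without the resting 3'RR library) and 109 (without stimulated wild type) of the 264 calls were kept.

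All 6 IgH constant genes that entered the fit fell. Ighm, which encodes the IgM heavy chain, stood at 2799 CPM in resting wild type and 1253 CPM in the resting 3'RR deletion, and at 9719.8 and 3634 CPM after LPS. The 3'RR deletion thus held less Ighm than wild type in each state, at 0.448 of its level at rest (95% interval 0.442 to 0.454, counting error only) and 0.374 after LPS (0.371 to 0.377). The fitted log2 fold change was −1.29 (SE 0.175, adjusted p = 0.0168 by edgeR's quasi-likelihood test). Ighm was higher after LPS than at rest in both genotypes. The hs3b-hs4 KO and 3'PAL KO libraries held 3685 and 2459 CPM at rest, and 10975 and 6599 CPM after LPS.

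The γ constant genes, used by IgG, were close to absent in the 3'RR deletion. Ighg3, the γ gene that LPS alone most readily engages in mouse B cells, stood at 29.1 CPM in resting wild type and 99.6 CPM after LPS, against 0.174 CPM (5 counts) and 0.0379 CPM (1 count) in the 3'RR deletion. Ighg3 was higher after LPS than at rest in wild type but not in the deletion, and its fitted log2 fold change was −9.04 (SE 1.28, adjusted p = 0.0195). Its response did not pass edgeR's test of the difference (unadjusted p = 0.439). In hs3b-hs4 KO Ighg3 was also low at rest, at 1.35 CPM, and stood at 23.2 CPM after LPS. In 3'PAL KO it stood at 33.0 and 35.0 CPM, with little rise. Ighg2b, the other γ gene engaged by LPS, stood at 13.5 and 40.9 CPM in wild type and at 0.348 and 0.152 CPM in the deletion (log2 fold change −6.58, SE 0.726, adjusted p = 0.00775). Ighg1, which LPS alone does not strongly induce, stood at 7.28 and 7.62 CPM in wild type, at 0 counts in the resting deletion, at least 69.7-fold lower if 3 counts is taken as the limit of detection, and at 0.0379 CPM after LPS (log2 fold change −8.42, SE 0.812, adjusted p = 0.00442). So the deletion lay below wild type at each of these genes in both states. In hs3b-hs4 KO and 3'PAL KO, Ighg2b stood at 5.24 and 11.5 CPM at rest and at 7.66 and 65.4 CPM after LPS. Ighg1 stood there at 8.06 and 6.11 CPM at rest and at 2.57 and 4.25 CPM after LPS.

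Ighg2c stood at 10.9 and 6.18 CPM in wild type and at 0.0348 and 0 CPM in the 3'RR deletion (log2 fold change −8.52, SE 0.681, adjusted p = 0.00213). After LPS it was at least 54.4-fold lower by the same limit. Its level was also low in hs3b-hs4 KO (0.617 and 0.642 CPM) and 3'PAL KO (0.733 and 1.12 CPM). Mouse strains carry either Ighg2c or the closely related Ighg2a, which is not among the listed genes, so the strain origin of the locus and the deletion cannot be told apart at this gene. Igha, the IgA constant gene and the one nearest to the deleted enhancers, stood at 15.4 and 1.08 CPM in wild type and 5.496 and 0.152 CPM in the deletion (log2 fold change −1.82, SE 0.338, adjusted p = 0.04998). Igha passed in only 4 of 9 other settings. It stood at 31.2 and 0.922 CPM in hs3b-hs4 KO and at 15.0 and 0.702 CPM in 3'PAL KO. Ighe, the IgE constant gene, was too low to test. It had 21 counts in resting wild type and 0 in the resting deletion, at least 10.3-fold lower, and 4 and 0 counts after LPS. With any 1 of the 4 libraries left out, which leaves a genotype with a lone library assumed to vary like the others, only Ighg2c of these genes held its call each time. Ighm then ran from −1.43 to −1.19 (adjusted p 0.0562 to 0.185), Ighg3 from −11.17 to −7.41 (0.0677 to 0.151) and Igha from −2.52 to −1.57 (0.0666 to 0.326), while Ighg1 and Ighg2b each lost the call in 1 of 4 (adjusted p up to 0.0569 and 0.0612).

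**Figure D1:**
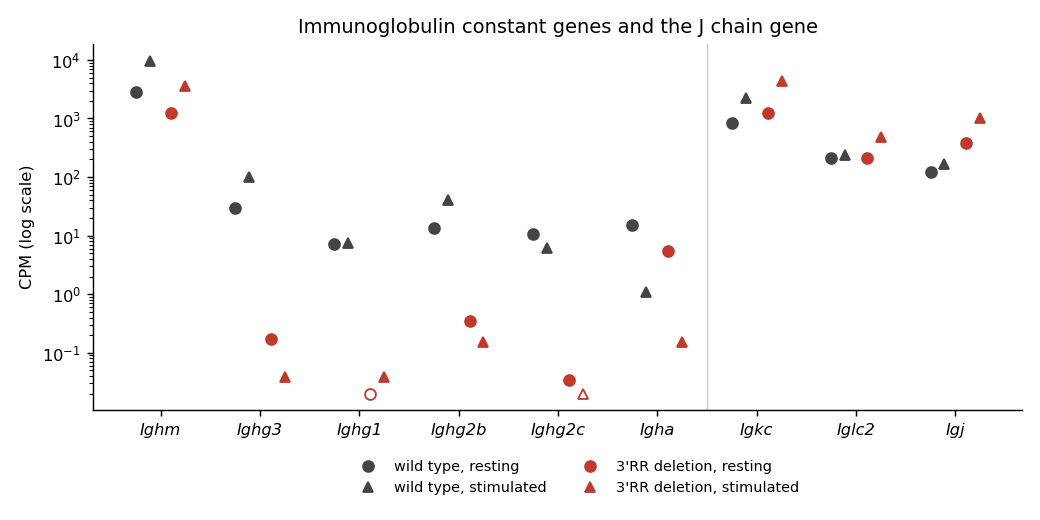
Levels (CPM, log axis) of the IgH constant genes, the light chain constant genes Igkc and Iglc2, and Igj in the 4 libraries; each symbol is 1 library, and hollow symbols at the foot of the axis stand for 0 counts. Both 3'RR symbols lie below both wild-type symbols at Ighg3, Ighg1, Ighg2b and Ighg2c, and the 3'RR symbols lie above wild type of the same state at Igkc, Iglc2 and Igj.

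Ighm is transcribed into 2 forms that differ at their 3' end, one for the secreted and one for the membrane-bound chain. The coding sequences of the alternative ends are shown because they are among the parts by which the transcript quantification separates the forms. They are given 5′ to 3′ on the minus strand of GRCm38 from the GENCODE annotation, with no base capitalised. The secreted end is 59 bases at chr12:113420870-113420928, and the membrane end is 122 bases in 2 exons within chr12:113418829-113419068.
Ighm secreted end: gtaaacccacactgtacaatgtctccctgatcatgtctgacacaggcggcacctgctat
Ighm membrane end: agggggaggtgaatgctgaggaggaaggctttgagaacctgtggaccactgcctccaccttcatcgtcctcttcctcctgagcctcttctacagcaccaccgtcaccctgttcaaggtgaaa

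By the deposited transcript estimates, the secreted form made up 35.0% of Ighm transcripts (by TPM, a length-corrected relative abundance) in resting wild type and 26.8% in the resting 3'RR deletion, and 83.4% and 64.4% after LPS. LPS shifted Ighm towards the secreted end in both genotypes, and its share was lower in the deletion in each state. Scaled to the gene-count library sizes, the secreted form was estimated at 1141 and 402 CPM at rest and at 10598 and 2993 after LPS, ratios of 0.352 and 0.282. The membrane form was estimated at 2443 and 1268 at rest and at 2448 and 1918 after LPS, ratios of 0.519 and 0.784. The ratio of deletion to wild type was thus lower for the secreted than for the membrane form in each state, and lowest for the secreted form after LPS. Ighd, the IgD constant gene, appeared only in the transcript estimates. Scaled as above, its membrane form was estimated at 618.2 CPM in wild type and 270.7 CPM in the deletion at rest. After LPS it was at 90.4 and 73.6 CPM, and the ratios were 0.438 and 0.815. By TPM it stood at 222.4 and 172 at rest and at 46.4 and 34.9 after LPS, so the size of the difference depends on the scale. These values are from 1 library each and were not tested.

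The V segments of the heavy chain were lower along with the constant genes. Their reads come mostly from the rearranged, transcribed IgH gene. Of 114 listed IgH V segments 89 could be tested, 88 had a negative fitted log2 fold change, and 44 passed the test, all lower. The median of the 89 was −1.79. Summed over all 114, V segments stood at 447.3 CPM in wild type and 186.1 CPM in the 3'RR deletion at rest, and at 1675 and 561 CPM after LPS. The ratios were 0.416 (0.402 to 0.430) and 0.335 (0.329 to 0.341), close in size to those of Ighm. The 4 J segments gave ratios of 0.505 and 0.421 with 0 called. In the hs3b-hs4 KO and 3'PAL KO libraries the V sums were 654.1 and 403.5 CPM at rest, and 1830 and 1072 CPM after LPS.

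Segments called lower were found along the whole V region. Divided into 4 successive groups by distance from the constant genes, 9 of 22, 14 of 22, 10 of 22 and 11 of 23 tested segments passed the test, from the nearest to the farthest group. Their median log2 fold changes were −1.22, −1.62, −1.66 and −2.26. The summed ratios at rest were 0.489, 0.390, 0.394 and 0.304, and after LPS 0.457, 0.307, 0.232 and 0.170, so the nearest group was least reduced and the farthest most. The 45 tested segments of subgroup 1, the largest, had summed ratios of 0.332 and 0.183, and the 8 of subgroup 5, which lie near the constant genes, 0.633 and 0.618. Which segments a pool uses depends on the B cell clones sampled and on the strain origin of the locus. Neither can be told apart from the deletion here.

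**Figure D2:**
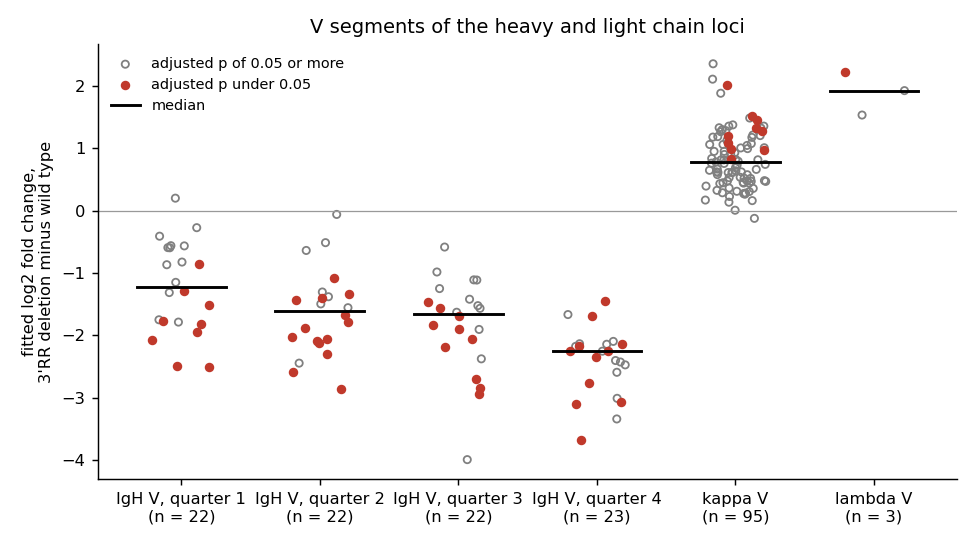
Fitted log2 fold change, 3'RR deletion minus wild type, of each tested V segment (1 point each), with IgH V segments in 4 groups from nearest to farthest from the constant genes, filled points for an adjusted p under 0.05 and bars for medians. The IgH medians run from −1.22 to −2.26, and the kappa and lambda medians are 0.78 and 1.93.

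Light chain V segments moved the other way. Of 95 tested kappa V segments 10 rose and 0 fell, with a median log2 fold change of 0.78, and 83 were higher in both states. Their sums were 742.5 CPM in wild type and 1228 CPM in the 3'RR deletion at rest (ratio 1.65), and 2408 and 4126 CPM after LPS (1.71). The kappa sums were 1863 and 3152 CPM in hs3b-hs4 KO and 1482 and 4768 CPM in 3'PAL KO, so the 3'RR deletion lay below both at rest and between them after LPS, with wild type the lowest in each state. The 3 lambda V segments, of which 1 rose, summed to 65.4 and 222.5 CPM at rest and 199.1 and 910.1 CPM after LPS. Kappa J segments, whose reads also come from transcripts that are not rearranged, had ratios of 0.930 and 0.986 with 0 of 5 called.

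The light chain constant genes and the joining chain did not pass the test. Igkc, the kappa constant gene, stood at 828.1 CPM in wild type and 1259.5 CPM in the 3'RR deletion at rest, and at 2258 and 4309 CPM after LPS (log2 fold change 0.78, SE 0.249, adjusted p = 0.224). Iglc2, a lambda constant gene, stood at 207.8 and 212.7 CPM at rest and 241.4 and 486.7 CPM after LPS (0.55, SE 0.258, adjusted p = 0.428). Igj, which encodes the chain that joins IgM pentamers, stood at 123.6 and 388.8 CPM at rest and 169.6 and 1037 CPM after LPS (2.24, SE 0.475, adjusted p = 0.0786). Igj passed in 3 of 9 other settings: with DESeq2 (adjusted p = 0.0148), without the filter on low counts (0.00202) and with the 4 libraries alone (0.025). It did not pass in the rest (adjusted p up to 0.102 by edgeR). With any 1 of the 4 libraries left out, its log2 fold change ran from 1.28 to 2.88. Wild type was also the lowest genotype for Igj, since hs3b-hs4 KO and 3'PAL KO held 877.2 and 599.5 CPM at rest, and 472.9 and 604.1 CPM after LPS.

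No gene around the locus was called. Of 23 tested neighbours on chromosome 12, 0 were called by edgeR (1.92% over all genes) and 3 had an unadjusted p under 0.05 (13.4% over all genes). Among so few genes, 0 calls do not set the neighbours apart from other genes. Their median log2 fold change was 0.17. Tmem121, a membrane protein gene, stood at 4.15 CPM in wild type and 4.10 CPM in the 3'RR deletion at rest, and at 1.11 and 2.35 CPM after LPS (log2 fold change 0.52, adjusted p = 0.623). Crip1, a LIM domain protein gene 104.9 kb from Igha, stood at 71.3 and 116.9 CPM at rest and at 34.7 and 52.1 CPM after LPS (0.65, adjusted p = 0.140), and its relative Crip2 at 3.69 and 11.0 CPM at rest and 0.971 and 1.10 CPM after LPS (1.00, adjusted p = 0.264). Mta1, a chromatin remodelling factor, stood at 18.1 and 18.8 CPM at rest and 22.5 and 27.3 CPM after LPS (0.17, adjusted p = 0.674). The tested neighbours ranged from −0.57 to 1.00.

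Outside the locus, the class with the most falls was that of pseudogenes. Of 718 tested pseudogenes 48 fell and 0 rose, against 1.08% of all tested genes that fell and 0.843% that rose. Of the 48, 38 stood below 3 CPM in both 3'RR libraries, on 16 chromosomes. On this mixed background, the strain origin of these loci and the deletion cannot be told apart. Many are processed copies of ribosomal protein genes, made from the parent's messenger RNA and so almost identical to it in sequence. Of 85 tested pseudogenes with Rpl or Rps names 13 fell. Rps3a3, a copy of Rps3a1 on chromosome 13, stood at 359.0 CPM in wild type and 1.74 CPM in the 3'RR deletion at rest, and at 629.5 and 2.43 CPM after LPS (log2 fold change −7.87, SE 0.360, adjusted p = 4.06e-04). It stood between 349.5 and 606.5 CPM in the other 4 libraries, so both 3'RR libraries were apart from all the rest. Rps3a1 itself, on chromosome 3, stood at 556.6 and 1141 CPM at rest and at 782.1 and 1770 CPM after LPS (1.11, SE 0.167, adjusted p = 0.0248). Rps3a2, a further copy on chromosome 14, stood at 129.7 and 57.8 CPM at rest and 232.1 and 73.4 CPM after LPS (−1.44, adjusted p = 0.0291). Summed over the 3 genes, counts were 1045 and 1200.1 CPM at rest and 1644 and 1846 CPM after LPS, ratios of 1.15 and 1.12.

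These genes can share reads, since the sequenced reads were 150 bases long and Rps3a1 and Rps3a3 were 98.9% identical over their coding sequence, with 9 mismatches in 792 bases and an identical run of 215 bases. The values of each copy and of its parent are uncertain for that reason. The transcript estimates divided the same family differently: Rps3a2 at 536.5 and 0.302 CPM, Rps3a3 at 117.6 and 0, and Rps3a1 at 395.8 and 1519 in resting wild type and the resting 3'RR deletion. By those estimates Rps3a1 did not pass the edgeR test (adjusted p = 0.0955), nor did it with any 1 of the 4 libraries left out (adjusted p 0.140 to 0.158). The windows below show how few letters separate a copy from its parent over 1 read length. Each is the 150-base stretch of the coding alignment with the most differences, from GRCm38, 5′ to 3′, with the differing bases in capitals. The parents' windows are spliced across exons.

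The Rps3a1 window is coding bases 214 to 363, within chr3:86139240-86141379 on the minus strand, and that of Rps3a3 is chr13:108670816-108670965 on the plus strand, with 3 differences.
Rps3a1: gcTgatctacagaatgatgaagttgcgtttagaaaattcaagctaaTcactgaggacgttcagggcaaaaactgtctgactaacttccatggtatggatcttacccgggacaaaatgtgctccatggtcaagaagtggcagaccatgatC
Rps3a3: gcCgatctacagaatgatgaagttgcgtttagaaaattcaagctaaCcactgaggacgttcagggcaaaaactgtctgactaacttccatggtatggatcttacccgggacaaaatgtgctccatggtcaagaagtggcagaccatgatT

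The Rpl34 window is coding bases 1 to 150, within chr3:130729066-130729293 on the minus strand, and that of Rpl34-ps1 is chr6:71124610-71124759 on the plus strand, with 1 difference.
Rpl34: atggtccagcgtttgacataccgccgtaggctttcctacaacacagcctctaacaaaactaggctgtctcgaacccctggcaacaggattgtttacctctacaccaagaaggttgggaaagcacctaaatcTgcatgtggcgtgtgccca
Rpl34-ps1: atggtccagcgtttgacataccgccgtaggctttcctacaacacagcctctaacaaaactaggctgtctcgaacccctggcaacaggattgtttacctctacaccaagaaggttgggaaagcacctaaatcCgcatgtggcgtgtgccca

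Rpl34-ps1 repeated the pattern of Rps3a3. It stood at 144.5 CPM in wild type and 1.43 CPM in the 3'RR deletion at rest, and at 228.6 and 2.73 CPM after LPS (log2 fold change −6.49, SE 0.375, adjusted p = 5.50e-04), and between 132.4 and 221.9 CPM in the other 4 libraries. Its parent Rpl34, a protein of the large ribosomal subunit, stood at 144.8 and 402.9 CPM at rest and at 227.1 and 532.2 CPM after LPS (1.35, SE 0.159, adjusted p = 0.00933). The sums of parent and copy differed less, with ratios of 1.397 at rest and 1.17 after LPS. Rps13-ps1 stood at 34.2 and 1.15 CPM at rest and 109.7 and 1.74 CPM after LPS (−5.53, adjusted p = 0.00291), and Rpl30-ps9 at 29.4 and 0.591 CPM at rest and 39.8 and 1.25 CPM after LPS (−5.24, adjusted p = 0.00203). Rps15a-ps6 stood at 19.7 and 1.32 CPM at rest and 27.3 and 0.947 CPM after LPS (−4.36, adjusted p = 9.64e-04). Their parents Rps13, Rpl30 and Rps15a did not pass the test (adjusted p 0.163, 0.375 and 0.224). Summed with all their copies examined, these 3 families had ratios of 1.71, 1.31 and 1.602 at rest and 1.09, 1.11 and 1.09 after LPS. The calls of Rps3a3, Rpl34-ps1, Rps13-ps1, Rpl30-ps9 and Rps15a-ps6 held with each of the 4 libraries left out in turn.

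Ferritin light chain, part of the shell that stores iron, also has a parent that rose and a processed copy that was lower. Ftl1 stood at 249.8 CPM in wild type and 841.8 CPM in the 3'RR deletion at rest, and at 111.6 and 488.6 CPM after LPS (log2 fold change 1.94, SE 0.157, adjusted p = 0.00220). Ftl2, a processed copy on chromosome 4, stood at 70.5 and 0.0696 CPM at rest and at 52.8 and 0 CPM after LPS, at least 464.8-fold lower after LPS by the limit of 3 counts. Ftl2 was seen in the wild-type libraries alone, with at most 0.0385 CPM in hs3b-hs4 KO and 3'PAL KO, and was therefore left out of the fit by the filter on low counts. Ftl1 was high in those libraries too, at 707.6 and 610.8 CPM at rest and 365.6 and 380.4 CPM after LPS. The sum of Ftl1 and Ftl2 did not level out as for Rps3a, with ratios of 2.63 at rest and 2.97 after LPS.

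**Figure D3:**
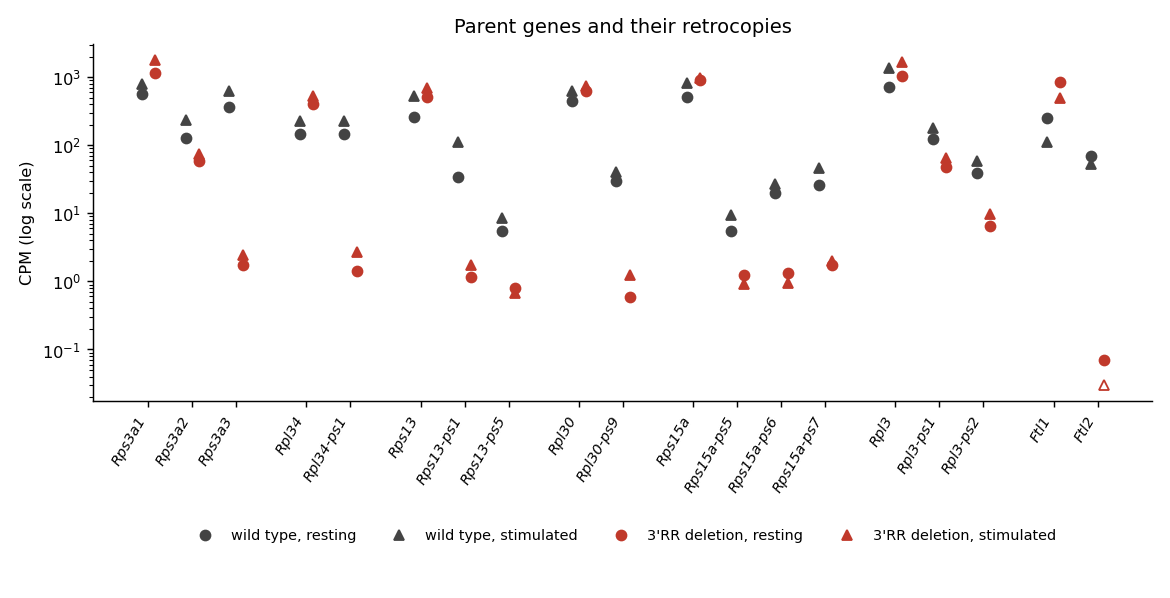
Levels (CPM, log axis) of parent genes and their processed copies in the 4 libraries, grouped by family; each symbol is 1 library, and the hollow symbol stands for 0 counts. Every copy shown lies lower in the 3'RR deletion than in wild type, and most lie below 3 CPM there, while the parents lie higher. The families were chosen after the fall of a copy was seen. Of 85 tested pseudogenes with Rpl or Rps names, 13 fell.

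Of the other named genes, 28 fell, and for 23 of them the 3'RR libraries were the lowest of the 4 genotypes in both states. The same held for 1288 of all 13761 tested genes (9.36%), which were not selected to lie below wild type as the 28 were. Wls, which carries Wnt proteins to the cell surface, stood at 56.1 CPM in wild type and 7.83 CPM in the 3'RR deletion at rest, and at 55.7 and 3.15 CPM after LPS (log2 fold change −3.41, SE 0.312, adjusted p = 0.00365). The other genotypes ranged from 69.7 to 96.9 CPM for Wls. Col6a4, a collagen VI chain, stood at 31.4 and 0.0348 CPM at rest and at 1.69 and 0 CPM after LPS (−9.68, adjusted p = 4.92e-04), with 5.62 and 18.5 CPM in the other resting mutants. Rprl3, a ribonuclease P RNA-like gene, stood at 21.6 and 0 CPM at rest and 6.65 and 0 CPM after LPS, at least 206.7-fold and 58.5-fold lower by the limit of 3 counts. Gprc5b, an orphan receptor, stood at 13.3 and 0.452 CPM at rest and 1.51 and 0.0379 CPM after LPS (−4.86, adjusted p = 5.50e-04). Gdpd3, a phosphodiesterase for lysophospholipids, stood at 25.7 and 0.939 CPM at rest and 5.82 and 0.379 CPM after LPS (−4.48, adjusted p = 0.00479).

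Other genes fell by less. Abhd2, a lipid hydrolase, stood at 289.8 and 95.7 CPM at rest and 159.6 and 65.2 CPM after LPS (log2 fold change −1.44, adjusted p = 0.00323). Slc15a2, a peptide transporter, stood at 126.6 and 49.7 CPM at rest and 19.9 and 10.1 CPM after LPS (−1.18, adjusted p = 0.0101). Inppl1, the SHIP2 phosphatase of inositol lipids, stood at 38.2 and 16.4 CPM at rest and 23.3 and 10.7 CPM after LPS (−1.18, adjusted p = 0.00933), and Crim1 at 35.0 and 12.5 CPM at rest and 23.1 and 9.13 CPM after LPS (−1.41, adjusted p = 0.00726). For these 4 genes both 3'RR libraries lay below all the other libraries of their state. Emb, the glycoprotein embigin, stood at 52.9 and 13.5 CPM at rest and 69.6 and 14.6 CPM after LPS (−2.12, adjusted p = 0.00291). It was also low in hs3b-hs4 KO, at 16.5 and 12.8 CPM, but not in 3'PAL KO, at 76.0 and 78.2 CPM. Dhdh, a dihydrodiol dehydrogenase, stood at 16.1 and 5.71 CPM at rest and 14.7 and 4.36 CPM after LPS (−1.62, adjusted p = 0.00809), and was between 5.29 and 6.51 CPM in the 4 other mutant libraries, so wild type stood apart there.

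Of the 45 other named genes that rose, the 3'RR libraries were the highest of the 4 genotypes in both states for 40. The same held for 1788 of all 13761 tested genes (13.0%), which were not selected to lie above wild type as the 45 were. Nlrc4, an inflammasome sensor adaptor, stood at 9.63 CPM in wild type and 37.6 CPM in the 3'RR deletion at rest, and at 5.5 and 22.7 CPM after LPS (log2 fold change 2.00, SE 0.170, adjusted p = 0.00287), with 8.32 to 15.7 CPM in the other 4 libraries. Serinc5, a membrane protein, stood at 27.4 and 58.7 CPM at rest and 55.3 and 124.9 CPM after LPS (1.14, adjusted p = 0.00384). Tifa, an adaptor of TRAF6 in NF-kB signalling, stood at 16.1 and 46.5 CPM at rest and 3.99 and 16.6 CPM after LPS (1.77, adjusted p = 0.00560). Sepp1, selenoprotein P, stood at 57.8 and 140.5 CPM at rest and 13.3 and 32.4 CPM after LPS (1.28, adjusted p = 0.00861), and Arl4c, a small GTPase, at 12.7 and 39.7 CPM at rest and 0.647 and 2.35 CPM after LPS (1.72, adjusted p = 0.0106). For each of these genes both 3'RR libraries were above every other library of their state. Nlrc4, Emb, Wls, Ftl1 and Gprc5b held their calls with each of the 4 libraries left out.

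A group of Trim genes on chromosome 7 was high in the 3'RR deletion in both states. Several Trim proteins of this family are known as antiviral restriction factors, and the members lie side by side between positions 104244457 and 104507849. Trim34a stood at 16.0 CPM in wild type and 92.3 CPM in the 3'RR deletion at rest, and at 7.37 and 62.6 CPM after LPS (log2 fold change 2.75, SE 0.397, adjusted p = 0.0207). Trim5 stood at 1.79 and 33.3 CPM at rest and 1.33 and 23.3 CPM after LPS (4.26, SE 0.768, adjusted p = 0.0462). Trim12a stood at 0.666 and 83.7 CPM at rest and 0.0719 and 38.0 CPM after LPS, and Trim30d at 3.02 and 39.5 CPM at rest and 2.01 and 48.9 CPM after LPS. Both missed the threshold (7.68, adjusted p = 0.0723, and 4.15, adjusted p = 0.0542). In the stimulated hs3b-hs4 KO library Trim5 (8.14 CPM), Trim12a (13.5 CPM) and Trim30d (21.8 CPM) were intermediate, while the resting library of that genotype was at 1.12, 0.347 and 2.58 CPM, close to wild type. Of the others in the stretch, Trim12c stood at 53.2 and 55.4 CPM at rest and 51.9 and 57.9 CPM after LPS, and Trim30c at 10.4 and 3.17 CPM at rest and 2.41 and 1.48 CPM after LPS. The members of this stretch are similar in sequence, so counts may be divided between them. The strain origin of the stretch and the deletion cannot be told apart either. Further along the chromosome, Gvin1, a large interferon-inducible GTPase, stood at 249.6 and 453.1 CPM at rest and 75.6 and 290.0 CPM after LPS (1.29, adjusted p = 0.224). The related pseudogene Gm1966, picked out after its values were seen, stood at 16.4 and 492.5 CPM at rest and 3.52 and 328.3 CPM after LPS (5.42, adjusted p = 0.0788).

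**Figure D4:**
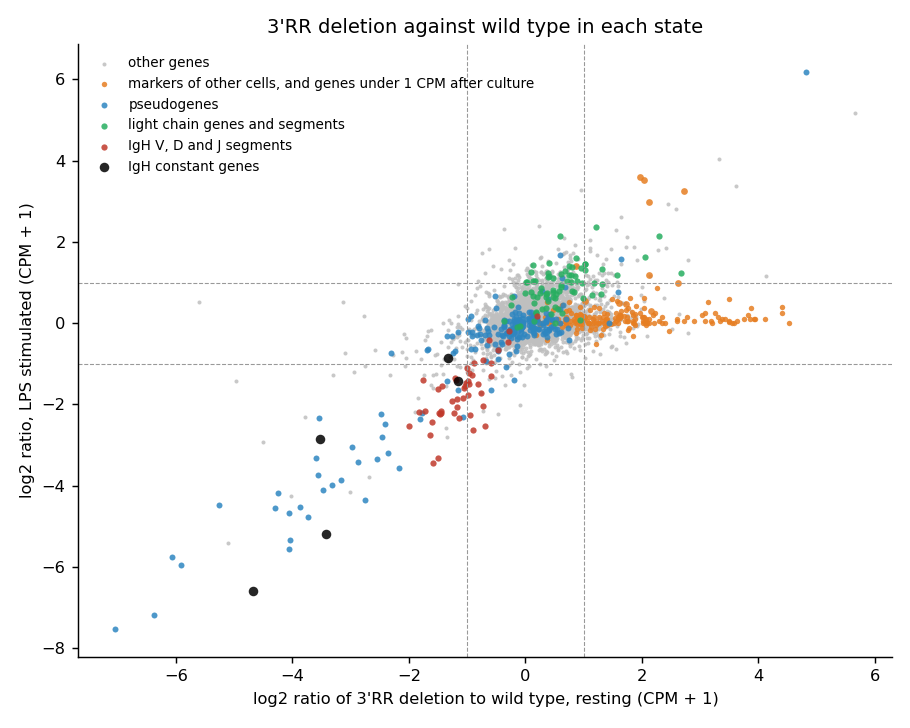
Log2 ratio of 3'RR deletion to wild type on the CPM + 1 scale at rest (x axis) and after LPS (y axis), each point 1 gene with at least 10 CPM in any of the 4 libraries, coloured by class, with dashed lines at a 2-fold difference. IgH genes and a group of pseudogenes lie low on both axes. The coloured genes under 1 CPM after culture have y near 0 and x above 0 by the definition of their class.

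Erythroid and macrophage markers were higher in the 3'RR deletion at rest. A class of genes was also defined by level, not by cell type. It holds genes under 1 CPM in both stimulated libraries and higher in the 3'RR deletion than in wild type at rest. Of its 1135 tested genes 49 rose. That 0 fell follows from this definition and is not a result. Slc4a1, the anion exchanger of red cells, stood at 16.3 CPM in wild type and 367.9 CPM in the 3'RR deletion at rest, and at 0.0359 and 0.227 CPM after LPS (log2 fold change 4.43, adjusted p = 4.07e-04). Vcam1, an adhesion molecule of splenic macrophages and stroma, stood at 58.0 and 298.9 CPM at rest (2.36, adjusted p = 0.00566). Of the 13 erythroid genes 9 rose, with a median log2 fold change of 2.84, and of the 17 monocyte and macrophage genes 11 rose, with a median of 1.96. Of the largest rises over both states, those of Rhd, Tmcc2, Epb4.2, Slc4a1, Trim10, Ermap, Sptb and Hbb-bt had log2 fold changes of 3.37 to 4.63, and all of these genes but Hbb-bt stood below 1 CPM in both stimulated libraries. Hbb-bs, a β-globin, was still seen after culture, at 5.5 CPM in wild type and 77.9 CPM in the deletion. The erythroid sums given above were higher still in resting 3'PAL KO, and those of macrophage genes highest in the resting 3'RR deletion. Within that class, edgeR called 0 genes without the resting 3'RR library, 1 without resting wild type, 21 without the stimulated 3'RR library and 40 without stimulated wild type. The part of these cells in the other results at rest was not tested.

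Lists of B cell genes held at most 1 call each. Over all 13761 genes tested, edgeR called 264 (1.92%), and 1842 (13.4%) had an unadjusted p under 0.05. The counts in each list below are to be read against these shares. Lists of this size would hold few calls at the share of all genes, so few calls do not set them apart. BCR signalling had 1 of 36 lower (Inppl1), with a median log2 fold change of 0.12. Of 20 marginal zone genes 0 were called by edgeR and 8 had an unadjusted p under 0.05, with a median of 0.08; Cr2, the complement receptor of marginal zone cells, stood at 999.1 CPM in wild type and 687.6 CPM in the 3'RR deletion at rest, and at 263.2 and 177.5 CPM after LPS (−0.56, adjusted p = 0.224). Of 21 follicular genes 0 were called and 8 had an unadjusted p under 0.05, with a median of 0.38. Among 11 B-1 genes 1 rose, Ctla4, an inhibitory receptor, from 1.79 to 8.24 CPM at rest and from 8.38 to 33.2 CPM after LPS (2.05, adjusted p = 0.0271). It did not pass with any 1 of the 4 libraries left out (adjusted p up to 0.158).

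Genes of antibody secretion held 1 call, in the opposite direction to Ighm. Of 21 plasma cell factors and markers 0 were called by edgeR and 12 had an unadjusted p under 0.05 (13.4% over all genes), with a median log2 fold change of 0.57 against 0.04 over all genes. Their summed level was 1457 CPM in wild type and 1619 CPM in the 3'RR deletion at rest, and 2395 and 4057 CPM after LPS. Igj is a large part of that sum: without it the values were 1334 and 1231 CPM at rest, and 2226 and 3021 CPM after LPS. The full sums were 2456 and 2238 CPM in resting hs3b-hs4 KO and 3'PAL KO, and 3033 and 3566 CPM after LPS, so wild type was lowest in each state by the full sum. Without Igj, these genotypes held 1579 and 1639 CPM at rest, and 2560 and 2962 CPM after LPS. By that sum the 3'RR deletion was the lowest genotype at rest, and wild type after LPS. Of 30 genes of protein folding in the endoplasmic reticulum 1 rose, Ero1lb, an oxidase that drives disulfide formation. It stood at 111.9 and 184.1 CPM at rest and 132.6 and 227.8 CPM after LPS (0.75, adjusted p = 0.0367). Ero1lb passed in only 6 of 9 other settings, and by the transcript estimates its log2 fold change was 0.20 (edgeR adjusted p = 0.546). With any 1 of the 4 libraries left out, it ran from 0.68 to 0.77. Of 35 genes of class switching and DNA processing 0 were called and 3 had an unadjusted p under 0.05. Of 37 factors that bind IgH enhancers 0 were called and 0 had an unadjusted p under 0.05.

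Signalling lists held 2 calls, both among interferon response genes. LPS receptor and adaptor genes had 0 of 25 called, NF-kB response genes 0 of 29 and immediate early genes 0 of 26, with 3, 2 and 4 members at an unadjusted p under 0.05 (13.4% over all genes). Of 30 interferon response genes 2 rose, against 0.843% over all genes. Rsad2, the antiviral enzyme viperin, stood at 22.5 CPM in wild type and 161.6 CPM in the 3'RR deletion at rest, and at 0.539 and 3.52 CPM after LPS (2.79, adjusted p = 0.0245), and at 157.2 CPM in resting 3'PAL KO. Isg20, an exonuclease, stood at 8.71 and 21.7 CPM at rest and 10.1 and 22.5 CPM after LPS (1.24, adjusted p = 0.0109), and was as high in 3'PAL KO, at 25.8 and 28.6 CPM. MHC class II genes (0 of 16), the Bcl2 family (0 of 15) and B cell markers (0 of 8) held 0 calls, with 2, 2 and 1 members at an unadjusted p under 0.05. Of 7 tested T cell genes 1 rose, Cd8a, the α chain of the CD8 co-receptor, at 3.33 and 13.2 CPM at rest and 0 and 0.0379 CPM after LPS (2.01, adjusted p = 0.0462). Cd8a passed in only 4 of 9 other settings, and by the transcript estimates its log2 fold change was 1.03 (edgeR adjusted p = 0.476). With any 1 of the 4 libraries left out, it ran from 1.93 to 3.05.

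Within each state, where 1 library is set against 1 and no test exists, genes were counted by size: a difference of 2-fold or more on the log2(CPM + 1) scale, with the higher of the pair at 10 CPM or above. At rest 355 of 8384 genes (4.23%) were higher in the 3'RR deletion and 121 (1.44%) lower. After LPS 154 of 8291 (1.86%) were higher and 116 (1.4%) lower. Falls were shared between states more than rises: 53 genes were lower in both, 43.8% of the resting list and 45.7% of the stimulated one, and 42 were higher in both, 11.8% and 27.3%, with 0 in opposite directions. These 2 comparisons share no library. Beyond the genes already described, the largest rises at rest by this rule were Aqp1, a water channel of red cells, at 1.84 and 64.2 CPM, and Car2, a carbonic anhydrase, at 9.99 and 191.3 CPM. After LPS they included Ly6c2, at 1.62 and 24.4 CPM.

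Most of the response to LPS was shared by both genotypes. Counted by the same size rule, 2080 of 8779 genes (23.7%) rose and 1219 (13.9%) fell with LPS in wild type, and 1609 of 8911 (18.1%) rose and 1127 (12.6%) fell in the 3'RR deletion. Of the genes higher after LPS, 1508 were shared, 72.5% of the wild-type list and 93.7% of the other, and of those lower 811 were shared, 66.5% and 72.0%, with 1 gene in opposite directions. Across 9175 genes the log2 responses of the genotypes had a Pearson correlation of 0.927, as a description over genes, which are not replicates. For 465 genes (5.07%) they differed by 1 or more on the log2 scale. In the test of the difference itself, which left 1 residual degree of freedom, 1 gene passed (0.00727%), and 516 had an unadjusted p under 0.05 (3.75%). On simulated counts of the same size, with the same spread for every gene, that test recovered 4% of genes with a 2-fold difference. It recovered 60% of those with a 4-fold difference, so smaller differences were mostly missed at that spread.

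**Figure D5:**
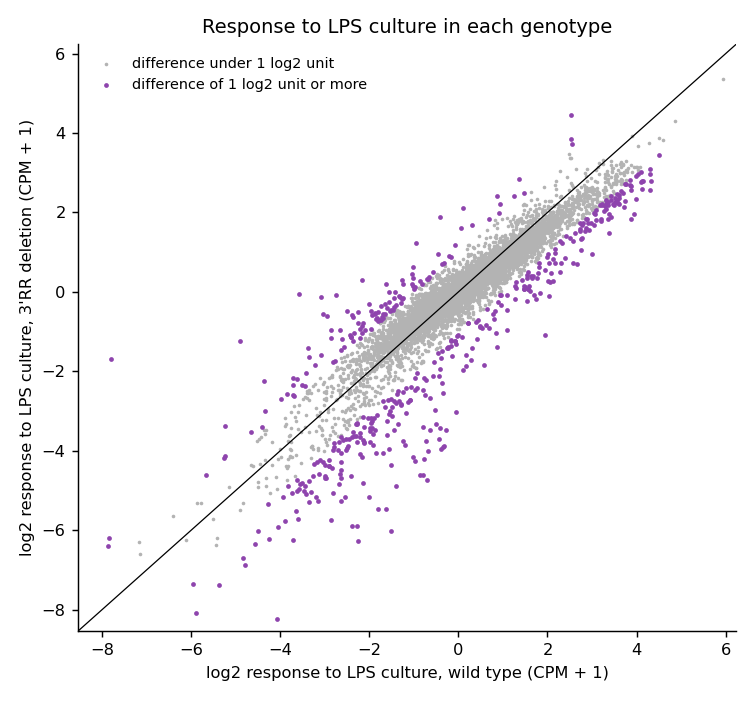
Log2 response to LPS culture on the CPM + 1 scale in wild type (x axis) and the 3'RR deletion (y axis), each point 1 of 9175 genes with at least 10 CPM in any of the 4 libraries, with the line of equal response. Coloured points are the 465 genes whose responses differ by 1 or more on the log2 scale.

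Some gene groups differed in the size of the response without any member passing the test. For cell cycle genes the median log2 response was 3.33 in wild type and 2.45 in the 3'RR deletion, and 1 of 36 (2.78%) had the larger response in the deletion, against 6051 of 13761 genes (44.0%) overall. This difference lay at rest: Mki67, a marker of dividing cells, stood at 130.1 CPM in wild type and 370.4 CPM in the deletion before LPS, and at 1592 and 1709 CPM after it. Resting hs3b-hs4 KO and 3'PAL KO held 97.1 and 370.5 CPM of Mki67. The median log2 ratio of the list was 0.66 at rest and −0.08 after LPS. Erythroid sums were also higher in that resting library, and their part in this result was not tested. The log2 response of MHC class II genes had a median of −1.44 in the deletion and −1.79 in wild type and was higher in the deletion for 16 of 16 genes, with 0 passing the test of the difference and 0 at an unadjusted p under 0.05. That of B cell markers had medians of −0.25 and −0.87 and was higher in the deletion for 8 of 8, with 0 passing and 1 at an unadjusted p under 0.05.

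The named genes with the lowest p for a difference of the response did not pass the test (adjusted p of at least 0.95). Ccl22, a chemokine that attracts T cells, went from 3.33 to 44.4 CPM with LPS in wild type and from 3.06 to 10.3 CPM in the 3'RR deletion. Ctse, the protease cathepsin E, went from 130.5 to 51.0 CPM and from 78.3 to 10.7 CPM. Pydc4, an interferon-inducible pyrin domain gene, went from 91.9 to 10.4 CPM and from 54.4 to 36.5 CPM, and Trp53inp1, a p53 target, from 322.0 to 157.4 CPM and from 278.7 to 431.6 CPM. At Trp53inp1 the 3'RR deletion was the 1 genotype with a higher value after LPS, since hs3b-hs4 KO and 3'PAL KO stood at 283.1 and 332.6 CPM at rest and 227.4 and 306.0 CPM after LPS. The others were Lars2, Gfi1, Mir6236 and Gla, with a higher log2 response in the deletion, and Spire1, Pttg1, Tubb6 and Acsl1, with a lower one. Lars2 and Mir6236 were highest in the resting wild-type library, at 62.3 and 91.8 CPM, against 8.28 and 9.57 CPM in the resting deletion.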

How the data were processed

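RNA-seq read counts per gene were deposited by the authors as 1 table of all 8 libraries, and TPM values per transcript as further deposited tables. The authors also deposited estimated counts per transcript, which kallisto made from the reads, per the submitters' processing notes. Per the submitters' processing notes, STAR 2.4.0a, featureCounts of Subread 1.4.6-p1, kallisto 0.42.3, SAMtools and bedtools were used with the mm10 build. The sources used here do not name the strand setting or the annotation release of the counting. Per the labels' protocols, the RNA was depleted of ribosomal RNA and the library kit keeps strand. Counts without a gene name (0.00621% to 0.0236% per library) and 93 spike-in entries, all at 0, were left out.

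CPM were computed with TMM-scaled library sizes. edgeR 4.0.16 (quasi-likelihood test, R 4.3.3) was fitted to all 8 libraries with genotype and state as terms, leaving 3 residual degrees of freedom, after edgeR's filter on low counts by state. Its p-values were adjusted by Benjamini-Hochberg over 13761 genes, with a threshold of 0.05. The difference of the response was fitted with a separate LPS response for wild type, for the 3'RR deletion and for the other genotypes together. Within a state, log2(CPM + 1) ratios were given with exact 95% binomial intervals (counting error only). Estimated transcript counts were rounded to whole numbers for the alternative test. Totals of 17883683 to 28785192 counts per library put the floor of 3 counts at 0.104 to 0.154 CPM. The model was checked on simulated counts for 13643 genes: over both states it recovered 74% of 2-fold and 100% of 4-fold changes. The simulation gave every gene the same spread and placed changes only in genes with higher mean counts. Genes with a larger spread or lower counts could therefore be missed at larger differences.

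The libraries and gene lists were chosen with earlier results of these data known. Named are the 10 largest called rises and falls over both states with a mean log2 CPM of at least 3, the 6 largest per state and direction, the 6 of lowest p per direction for the response, up to 4 genes of each list, and constant and neighbouring genes. Genes with clone-like names are counted only. Ftl1, Nlrc4, Serinc5, Tifa, Sepp1, Rpl34, Arl4c, Isg20, Emb, Abhd2, Wls, Crim1, Dhdh, Inppl1, Slc15a2, Ttbk2, the parents of the copies and the genes beside Trim5 were added after their values were seen, as were the classes of called genes. Alternatives changed the filter, scaling, tool, counter, libraries and size rule. Sequences come from GRCm38 with the GENCODE M21 annotation, and processed copies were aligned to their parents with Biopython 1.88. Some items are not reported here.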

Additional observations from a re-analysis of the deposited data

Results flagged for a closer look

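AY036118, a gene model on chromosome 17 with a clone-like name, was the 1 gene whose response to LPS differed between the genotypes by edgeR's quasi-likelihood test of the difference (6.14 on the log2 scale, 3'RR deletion minus wild type, SE 0.350, adjusted p = 0.0475). It stood at 17747 CPM in resting wild type, 1.94% of that library's counts, and at 78.1 CPM in stimulated wild type, 363.4 CPM in the resting and 112.8 CPM in the stimulated 3'RR deletion. The other 4 libraries ranged from 357.9 to 790.0 CPM, so the value rests on the resting wild-type library.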

How the results depend on the processing

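No paired analysis was possible because each genotype and state has 1 library and the labels carry no replicate numbers; state is a term of the fit. Over both states the calls (116 higher, 148 lower) became 404 and 253 without the filter on low counts, 270 and 244 with DESeq2, and 84 and 98 by kallisto's counts, where 141 of the 209 calls that could be tested were kept. Leaving out 1 library gave 12 to 52 higher and 49 to 85 lower (12 and 50 without the resting 3'RR library, 28 and 49 without the stimulated one, 19 and 85 without resting wild type, 52 and 79 without stimulated wild type), and 51, 69, 90 and 109 of the 264 calls were kept. With the 4 libraries alone 176 were kept. Of 62 named genes called, 11 held their call with each library left out, and the direction was the same in all 62. For the difference of the response, the count of 1 higher and 0 lower became 11 and 7 without the filter, 4 higher by kallisto, and 0 higher with scaling that leaves out immunoglobulin, erythroid and rRNA-like genes or against a response shared by the other 3 genotypes, where Pydc4 reversed to −0.26. With 3 CPM as the minimum, 566 genes were higher and 206 lower at rest and 181 lower after LPS. With a 1.5-fold limit, 130 were higher and 86 lower in both states. By kallisto's counts 66.4% of genes past the size rule after LPS were higher, against 57.0%. By estimated counts the secreted share of Ighm was 31.8% and 24.1% at rest and 81.2% and 61.0% after LPS. The filter by design, chosen after seeing the data, gave 136 and 154 calls with 263 kept. Depth limits genes under about 0.154 CPM.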
